A study of Homo sapiens with 6 samples.

Results

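The genes examined were the protein-coding genes whose symbol starts with VPS, CHMP or SNX followed by a digit, 76 of the 19708 protein-coding genes among the 58243 gene identifiers counted. They comprise 35 VPS genes, 11 CHMP genes and 30 SNX genes, and they were chosen by name alone. All 76 were found, and 74 passed the filter on low counts (SNX20 and SNX31 had at most 7 and 3 counts in any library). The libraries came from A375, a human melanoma cell line, stably transfected with an empty vector (EV, libraries B1, B2 and B3) or with a plasmid for HA-tagged human PRL3 (libraries B9, B10 and B11) and kept in hygromycin B at 100 µg/ml. Both lines thus carry a vector and the selection. PRL3 is a phosphatase encoded by PTP4A3. Whether either line is 1 clone, and whether the 3 libraries of a line came from separate cultures, is not given in the sources used here, so the p-values measure the spread between these libraries, which may be technical. Cells received 500 µM 4-thiouridine (4sU) for 20 min, and the labelled, newly made RNA was pulled down and sequenced (4sU-seq). The values compared are therefore counts of this labelled RNA over exons, called nascent RNA below. The question was whether genes of endosomal sorting differ in it when PRL3 is overexpressed. The study cautions that exonic reads may be confounded by splicing during transcription or by carried-over mRNA. It used intronic reads for its later analysis. A lower count over exons therefore need not mean less transcription.

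Endosomes receive membrane proteins from the cell surface and sort them. Retromer (VPS26, VPS29 and VPS35), its relative retriever and many sorting nexins, which bind phosphoinositides through a PX domain, return receptors to the surface or to the Golgi. ESCRT complexes I, II and III, the last built from CHMP proteins and taken apart by the VPS4 ATPases, pull ubiquitinated cargo into vesicles inside the endosome, and CORVET and HOPS tether endosomes and lysosomes before they fuse. Melanosomes, the pigment organelles of melanocytes, are built from endosomes with the help of these machines.

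Several properties of the libraries bear on every value. Gene counts were 47158709 to 57952035 in the EV libraries and 36532207 to 56511290 in the PRL3 libraries, and PTP4A3 was higher in PRL3 by a log2 fold change of 6.80 (adjusted p = 1.1e-08), as the labels say. Uniquely aligned reads outside annotated exons of the expected strand made up 33.3% ± 6.75 (SD, n = 3) in EV and 66.3% ± 3.18 (SD, n = 3) in PRL3 (two-sided exact permutation test, p = 0.1, the smallest that 3 against 3 can give). The part of this difference in the results below was not tested. The melanoma markers SOX10 (9882 to 23575 counts) and S100B (982 to 2630 counts) were present, TYR and MLANA had at most 2 counts, and of 11 epithelial, blood and endothelial markers 3 passed the filter (EPCAM, KRT14 and VWF). Most tested lineage markers were lower in PRL3, along with many members. Of 12 melanocyte, melanoma and neural crest markers 8 were tested, and 6 of these were lower and 0 higher, with log2 fold changes of -2.60 for S100A1, -1.69 for NGFR, -1.38 for S100B, -0.85 for SOX10, -0.72 for CSPG4 and -0.40 for AXL. MITF (0.36, adjusted p = 0.0738) and PMEL (-0.33, adjusted p = 0.664) were not called, so SOX10 was the only melanocyte marker called lower. Of tested protein-coding genes 31.6% were lower. With library size alone 3 of the 12 were lower (S100A1, NGFR and S100B) and 1 was higher (MITF). MITF was also called higher with upper-quartile scaling, with protein-coding genes only, with at least 10 counts required in every library and without EV library B1. KRT14 was lower too (-1.31). The part of these markers in the results was not tested either.

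Fold changes depend on how the libraries are put on 1 scale. With the trimmed mean of M-values (TMM) scaling of edgeR, used for all normalized counts and fold changes unless stated, the 23884 genes tested had a median log2 fold change of 0.11. This median was 0.07 with relative log expression (RLE) scaling, 0.29 with the upper quartile, 0.60 with library size alone and -0.37 with all uniquely aligned reads as the library size. The median of the 74 tested members was -0.42 with TMM, -0.46 with RLE, -0.24 with the upper quartile, 0.07 with library size alone and -0.90 with all uniquely aligned reads. Under each of these 5 scalings the members' median lay 0.53 or 0.54 below that of all tested genes. A change of scaling moves all genes by about the same amount, so this gap could hardly differ and is not a check. Over all the fits made, the members' median minus that of all genes ranged from -0.66 (DESeq2) to -0.27 (protein-coding genes only). The order of members against each other, and the ratios of members within a library given further below, carry no choice of scaling. In bulk RNA a smaller output in every cell and an absent output in some cells cannot be told apart. All adjusted p-values come from the quasi-likelihood F test of edgeR, 3 libraries against 3, adjusted by Benjamini-Hochberg over the 23884 genes and read at a threshold of 0.05.

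More members were lower than higher in PRL3 with TMM, 34 against 10 with 30 not called, although library size alone gave 16 lower and 20 higher and all uniquely aligned reads gave 51 lower and 1 higher. The share of members called lower was 45.9%, beside 22.7% of all tested genes and 31.6% of the 14443 tested protein-coding genes. For members called higher it was 13.5%, beside 20% of all tested genes and 15.2% of the protein-coding genes. Of the 9441 tested genes that are not protein-coding 9.06% were lower and 27.5% higher. The highest PRL3 library lay below the lowest EV library for 41 of the 74 tested members, where 26.6% of all tested genes and 36.7% of protein-coding genes did so, and the lowest PRL3 library lay above the highest EV library for 12, where 29.7% and 22.2% did so. The median log2 fold change of protein-coding genes was -0.15 (quartiles -0.77 and 0.37), against -0.42 for the members (quartiles -0.88 and -0.02). In all, 15 members had log2 fold changes under -1, and each of these 15 was called lower, while CHMP4A alone among the called members lay above 1. In each PRL3 library the median member sat below its EV mean, by a log2 difference of -0.47 in B9, -0.33 in B10 and -0.39 in B11, while the EV libraries lay between -0.08 and 0.03.

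The calls that did not depend on the processing were the large ones. Of the 34 members called lower, 16 remained called lower in each of 18 alternatives, which were other scalings, tools, filters, offsets and thresholds and the loss of each library. They were CHMP1A, CHMP2A, CHMP4B, CHMP5, CHMP6, SNX3, SNX12, SNX17, VPS9D1, VPS16, VPS25, VPS26A, VPS28, VPS37D, VPS51 and VPS72. Of the 10 called higher, only CHMP4A remained in each of the 18. The other 18 lower calls were each lost with library size alone, and the other 9 higher calls were each lost with all uniquely aligned reads. Upper-quartile scaling, like a fit of protein-coding genes only, ended the lower calls of CHMP1B, SNX21, SNX27, SNX33, VPS18 and VPS52, and RLE scaling ended the higher calls of SNX29 and VPS26C.

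**Figure D1:**
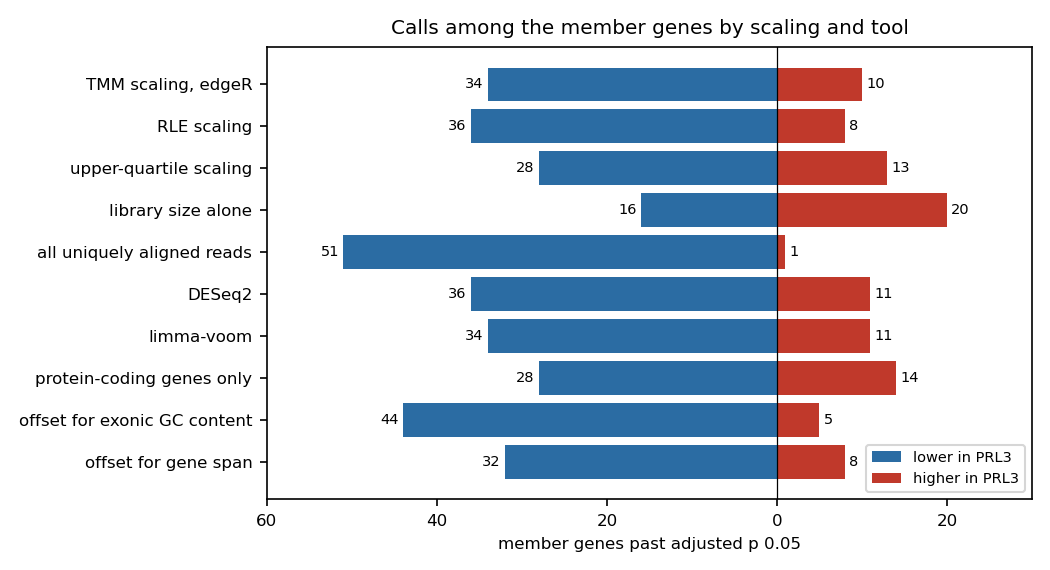
Members called lower (blue, to the left) and higher (red, to the right) in PRL3 at an adjusted p of 0.05 (x axis, number of genes) under 10 choices of scaling, tool, gene set and offset (rows). Lower calls exceed higher calls in 9 of the 10 and range from 28 to 51 there; with library size alone 16 are lower and 20 higher.

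**Figure D2:**
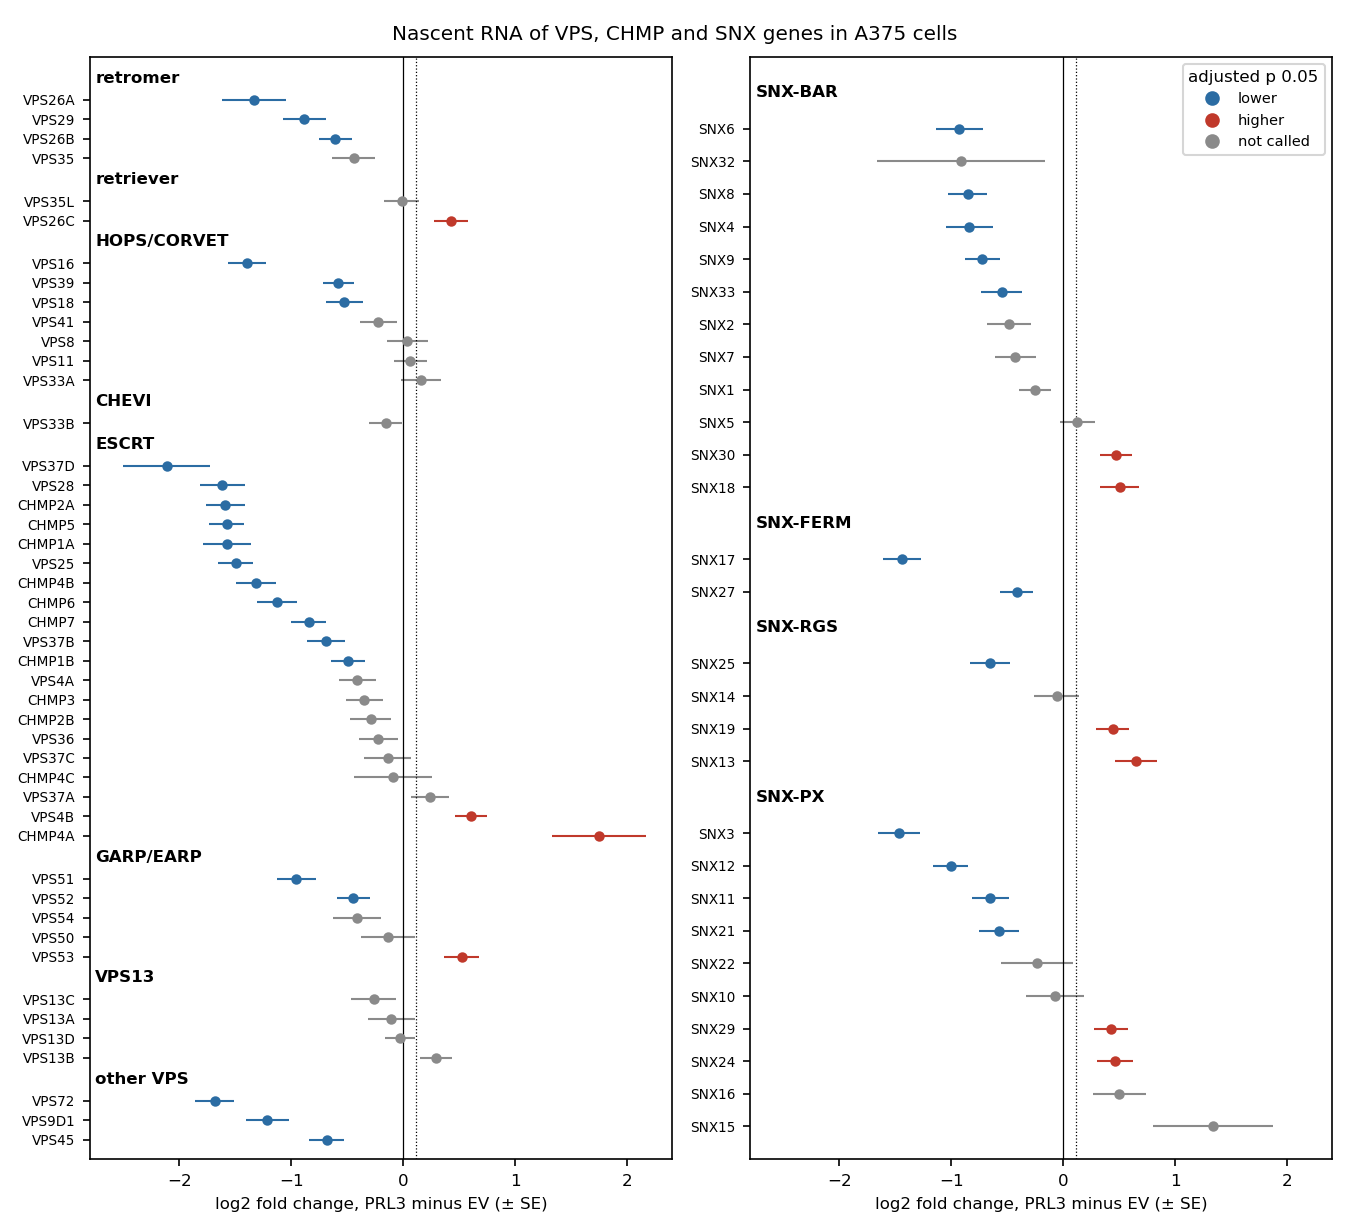
Log2 fold change (PRL3 minus EV, TMM scaling, x axis) with its standard error for the 74 tested members, grouped by complex or domain family (rows). Blue points passed an adjusted p of 0.05 and were lower in PRL3 (34 genes), red points were higher (10 genes), grey points were not called, and the dotted line is the median of all tested genes (0.11); with library size alone 16 were lower and 20 higher. ESCRT genes reach furthest to the left, and CHMP4A stands alone at 1.75.

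Of the 4 groups compared, retromer and ESCRT had the greatest share of lower calls. With TMM, 3 of 4 retromer genes were lower and 0 higher (median log2 fold change -0.75), 11 of 20 ESCRT genes were lower and 2 higher (median -0.59), 3 of 7 HOPS and CORVET genes were lower and 0 higher (median -0.22), and 12 of 28 tested sorting nexins were lower and 6 higher (median -0.42). The retromer and ESCRT medians stayed below 0 with all 5 scalings, at their highest -0.25 and -0.10 with library size alone. With that scaling those of HOPS and CORVET (0.27) and of the sorting nexins (0.07) turned above 0. The shares lower with TMM were 75% for retromer, which has 4 genes, 55% for ESCRT and 42.9% for each of the other 2 groups. Beside these stand 31.6% of protein-coding genes and 22.7% of all tested genes. ESCRT genes had a median span of 18142 bases, and 45.3% of other protein-coding genes spanning up to 20 kb were lower. The groups were not tested against each other. The smaller groups included GARP and EARP, tethers at the trans-Golgi network and recycling endosomes (2 lower and 1 higher of 5). The lipid-transfer proteins of the VPS13 family had 0 called of 4. The rest were retriever (1 higher of 2), VPS33B of the CHEVI complex (not called) and 3 VPS genes outside these complexes (3 lower). VPS29, a subunit of retriever too, was counted with retromer.

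The promoters of 4 members are shown because they carry CACGTG, the core of the element bound by TFEB, TFE3 and MITF, transcription factors known for lysosomal and melanocyte genes, in members that differ in their response. The stretches come from RefSeq promoters (GRCh38.p14, 250 bases before to 50 after the start), lie before the RefSeq start, are written 5′ to 3′ on the strand of the gene, and have the motif in capitals.
SNX8 (chr7:2314606-2314665, minus strand): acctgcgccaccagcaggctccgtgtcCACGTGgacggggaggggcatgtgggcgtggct
VPS11 (chr11:119067735-119067794, plus strand): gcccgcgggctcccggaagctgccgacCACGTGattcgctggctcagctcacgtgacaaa
VPS16 (chr20:2840652-2840711, plus strand): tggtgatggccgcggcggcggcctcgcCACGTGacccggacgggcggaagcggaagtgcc
VPS37B (chr12:122896131-122896190, minus strand): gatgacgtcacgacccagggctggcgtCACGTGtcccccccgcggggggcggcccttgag
The start of the motif in capitals lies 197 bases before the RefSeq start of SNX8, 56 before that of VPS11, 66 before that of VPS16 and 39 before that of VPS37B. VPS11 holds a further copy 34 bases before its start. The window searched for SNX8 also holds TCACGTG, which contains CACGTG, outside the stretch shown. SNX8, VPS16 and VPS37B were called lower, and VPS11 was not called. CHMP4A, which was called higher, carries the motif 114 bases before its RefSeq start, and its stretch is not shown. That motif lies inside the gene as GENCODE release 44 draws it. The stretch shown for SNX8 also lies inside its GENCODE gene (chr7:2251770-2354318). Promoters were matched for 55 of the 76 members. CACGTG, which reads the same on both strands, was present in 7 of them (12.7%), beside 9.76% of 11561 other tested protein-coding genes. It occurred in 3 of 27 promoters of members called lower, in 1 of 7 of those called higher and in 3 of 21 of those not called. Of the other motifs searched, on both strands, TCATGTG was in 3 member promoters (5.45%, beside 1.85% of the others), CATGTG, which TCATGTG contains, was in the same number (5.45%, beside 7.15%), and TCACGTG, a longer form of CACGTG, was in 7 (12.7%, beside 5.51%). A match is a description of the letters only.

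Retromer carries receptors back from endosomes and consists of VPS35, VPS29 and either VPS26A or VPS26B. Of its 4 genes, 3 were lower in PRL3. VPS26A (chr10:69123512-69174412, GRCh38) had 1346, 869 and 591 normalized counts in EV libraries B1, B2 and B3 and 297, 325 and 492 in PRL3 libraries B9, B10 and B11, the order used throughout. All 3 PRL3 values lay below the lowest EV value, and the log2 fold change was -1.33 ± 0.29, adjusted p = 0.00231. VPS26B, its paralog, had 5318, 5859 and 4807 in EV and 3589, 3760.1 and 3141 in PRL3, again without overlap (-0.61 ± 0.15, adjusted p = 0.00519). VPS29 (chr12:110491083-110502111) had 2755, 2085 and 2206 in EV and 950.3, 1419.8 and 1445 in PRL3 (-0.88 ± 0.19, adjusted p = 0.00232). These 2 calls were lost with library size alone, where the log2 fold changes were still negative. VPS35, the scaffold of the complex, had 5575, 3200.4 and 4168 in EV and 2906, 3082 and 3543 in PRL3. Its groups overlapped through EV library B2, and it was not called (-0.44 ± 0.19, adjusted p = 0.0797), although without B2 it was lower (-0.60, adjusted p = 0.0184) and with library size alone its value was 0.05. VPS26B was the more abundant VPS26 gene in nascent RNA per length of exon, in counts per kb of exon scaled to CPM, at 17.5 ± 1.73 CPM per kb in EV against 3.88 ± 1.58 for VPS26A (SD, n = 3). In PRL3 these levels were 11.5 ± 1.05 and 1.54 ± 0.438.

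Retriever recycles integrins and other cargo as part of the Commander assembly. VPS26C had 1794, 1619 and 1899.5 normalized counts in EV and 2633, 2305 and 2185 in PRL3, each PRL3 library above each EV library. Its log2 fold change was 0.42 ± 0.15, adjusted p = 0.0385, a rise of small size that turned to -0.05 with all uniquely aligned reads and lost its call without EV library B2 or any 1 of the PRL3 libraries (adjusted p 0.0647 to 0.157). The other retriever subunits are VPS35L and VPS29. VPS35L overlapped between groups and was not called. VPS29 is shared with retromer, was counted there and was lower (-0.88).

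HOPS and CORVET share VPS11, VPS16, VPS18 and VPS33A. HOPS adds VPS39 and VPS41, and CORVET adds VPS8 and TGFBRAP1. Within the shared core the genes differed. VPS16 (chr20:2840703-2866732), the binding partner of VPS33A, had 2224, 2703 and 2235 in EV and 824, 1057 and 844 in PRL3 (-1.39 ± 0.17, adjusted p = 3.64e-05). VPS18, a ring-domain subunit, had 3238, 4465 and 3994 in EV and 2443, 3011 and 2671 in PRL3, without overlap (-0.53 ± 0.16, adjusted p = 0.019). The call for VPS18 was lost without EV library B2 or PRL3 libraries B9 or B11 (adjusted p 0.0706 to 0.0983), and its log2 fold change was -0.07 with an offset for exonic GC content (adjusted p = 0.633) and -0.29 with an offset for gene span (adjusted p = 0.119). By contrast VPS11 had 2042, 1933 and 2184 in EV and 2291, 2157 and 1979.9 in PRL3, and VPS33A had 572, 635 and 611 in EV and 755, 624 and 651 in PRL3. The groups overlapped for VPS11 (0.06 ± 0.15, adjusted p = 0.768) and for VPS33A (0.16 ± 0.18, adjusted p = 0.51), and both were above 0 and called higher with library size alone (0.55 and 0.66), but below 0 with all uniquely aligned reads (-0.41 and -0.32).

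Of the subunits particular to HOPS, VPS39 was lower, with 4506, 4615 and 4976 in EV and 2946, 3341 and 3148 in PRL3 (-0.58 ± 0.14, adjusted p = 0.00493). VPS41 had 2455, 1709.7 and 2025 in EV and 1657, 1788 and 1863 in PRL3, which overlapped (-0.22 ± 0.17, adjusted p = 0.308, 0.27 with library size alone). VPS8 of CORVET had 895, 864 and 846 in EV and 712, 955 and 1006 in PRL3, and its log2 fold change was near 0 (0.04 ± 0.18, adjusted p = 0.886, 0.52 with library size alone and -0.44 with all uniquely aligned reads). Of these 7 genes only VPS16 kept its call under all 5 scalings.

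ESCRT-I recognizes ubiquitinated cargo through TSG101, VPS28, a VPS37 protein and an MVB12 or UBAP1 protein. VPS28 (chr8:144423601-144428563) had 2492, 4035 and 2895 in EV and 951, 1235 and 887 in PRL3 (-1.62 ± 0.20, adjusted p = 4.59e-05). The 4 VPS37 genes, which fill the same place in the complex, did not move together. VPS37D (chr7:73667831-73672112) had the largest fall of all members, from 224, 310.4 and 229 in EV to 25.7, 73.7 and 76.1 in PRL3 (-2.11 ± 0.39, adjusted p = 0.000771). VPS37B had 2397, 3306 and 3193 in EV and 1839.8, 2023 and 1647 in PRL3 (-0.69 ± 0.17, adjusted p = 0.00474). Exons of ENSG00000280138, a gene on the same strand, cover 29.4% of the VPS37B exons, and reads on both were counted for neither. That gene had 885, 685 and 1873 counts in EV and 3935, 4196 and 3111 in PRL3 (1.54, adjusted p = 0.000177). Its part in the fall of VPS37B was not tested. VPS37C had 809, 1097 and 1296 in EV and 911, 1188 and 811 in PRL3, with overlapping groups (-0.14 ± 0.21, adjusted p = 0.631, 0.34 with library size alone). VPS37A had 1153, 1015 and 916 in EV and 1239, 1063 and 1343 in PRL3, also overlapping (0.24 ± 0.17, adjusted p = 0.279, -0.25 with all uniquely aligned reads and 0.74 with library size alone, where it was called higher). VPS25 of ESCRT-II (chr17:42773449-42779599) had the highest level per length of all members in EV, 82.2 ± 9.33 CPM per kb (SD, n = 3), and 29.2 ± 3.36 in PRL3. Its normalized counts were 9095, 10387 and 8306 in EV and 3101, 3719.9 and 3035 in PRL3 (-1.50 ± 0.16, adjusted p = 1.63e-05). The other ESCRT-II gene of the rule, VPS36, was not called.

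ESCRT-III, the filament that cuts the vesicle neck, held 7 of the 11 lower calls of ESCRT (ESCRT-III median log2 fold change -0.85). The 2 largest falls were those of CHMP2A and CHMP5. CHMP2A (chr19:58551452-58555105), one of the late subunits that recruit VPS4, had 5937, 6734 and 4699 in EV and 1701, 2252 and 1820.2 in PRL3 (-1.59 ± 0.18, adjusted p = 2.16e-05). In GENCODE release 44, the exons of its transcripts together cover its whole span. Exonic lengths and shared exons come from that annotation, while the counts were made with Ensembl release 91, whose exons may differ, so levels per length and shares of shared exon may not match what was counted. CHMP5 (chr9:33264879-33282070), which binds the VPS4 regulator LIP5, had 5187, 4104 and 3846 in EV and 1469, 1452 and 1480.4 in PRL3, where the 3 libraries were nearly equal (-1.58 ± 0.16, adjusted p = 1.45e-05). CHMP1A had 6583, 9395 and 6494 in EV and 1872, 3235 and 2423 in PRL3 (-1.58 ± 0.21, adjusted p = 7.59e-05), and CHMP4B, the main polymer-forming subunit, had 3298, 3509.6 and 2399 in EV and 1158, 1392 and 1155 in PRL3 (-1.31 ± 0.18, adjusted p = 7.77e-05). None of these 4 genes had overlapping groups. CHMP6 (-1.13 ± 0.18) and CHMP7 (-0.85 ± 0.15), which start filaments at endosomes and at the nuclear envelope, were lower as well. CHMP1B, the intronless paralog of CHMP1A, had 4291, 3943 and 3501 in EV and 2833, 3015 and 2491 in PRL3. Its fall was smaller (-0.49 ± 0.15, adjusted p = 0.0181), was 0.0037 with library size alone and lost its call without PRL3 libraries B9 or B11 (adjusted p 0.0588 and 0.113). CHMP2B had 1437, 973 and 996 in EV and 882, 959 and 939 in PRL3 and was not called (-0.29 ± 0.19, adjusted p = 0.228, 0.20 with library size alone).

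CHMP4A was the exception. It had 26.8, 27.7 and 62.7 normalized counts in EV and 129, 121 and 150.1 in PRL3 (1.75 ± 0.42, adjusted p = 0.00449), the largest rise among the called members. Its level per length was low, 0.354 ± 0.186 CPM per kb in EV and 1.21 ± 0.138 in PRL3, against 40.7 ± 7.82 and 16.4 ± 1.8 for CHMP4B (SD, n = 3). Exons of other genes on the same strand, the noncoding gene ENSG00000260669 among them, cover 69.2% of its exonic length. Reads that fall on both genes were counted for neither, so the level of CHMP4A is uncertain. ENSG00000260669 itself had 8, 17 and 14 counts in EV and 32, 69 and 44 in PRL3 (log2 fold change 1.61, adjusted p = 0.0488). The reads counted as ambiguous between genes made up 4.67% ± 0.29 of uniquely aligned reads in EV and 2.15% ± 0.44 in PRL3 (SD, n = 3), and their part in the rise was not tested.

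The VPS4 ATPases take the filament apart. VPS4B had 1873, 1846 and 1961 in EV and 2771, 2753 and 3111 in PRL3, above every EV value (0.60 ± 0.14, adjusted p = 0.00423), a call that was lost with all uniquely aligned reads. VPS4A went the other way in value, with 1961, 2736 and 2409.6 in EV and 1828, 1936 and 1585 in PRL3, but missed the threshold (-0.41 ± 0.17, adjusted p = 0.0632). It passed with RLE scaling (adjusted p = 0.0475) and without EV library B1 (adjusted p = 0.0137), and was 0.08 with library size alone. Exons of another gene cover 21.0% of the VPS4A exons.

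**Figure D3:**
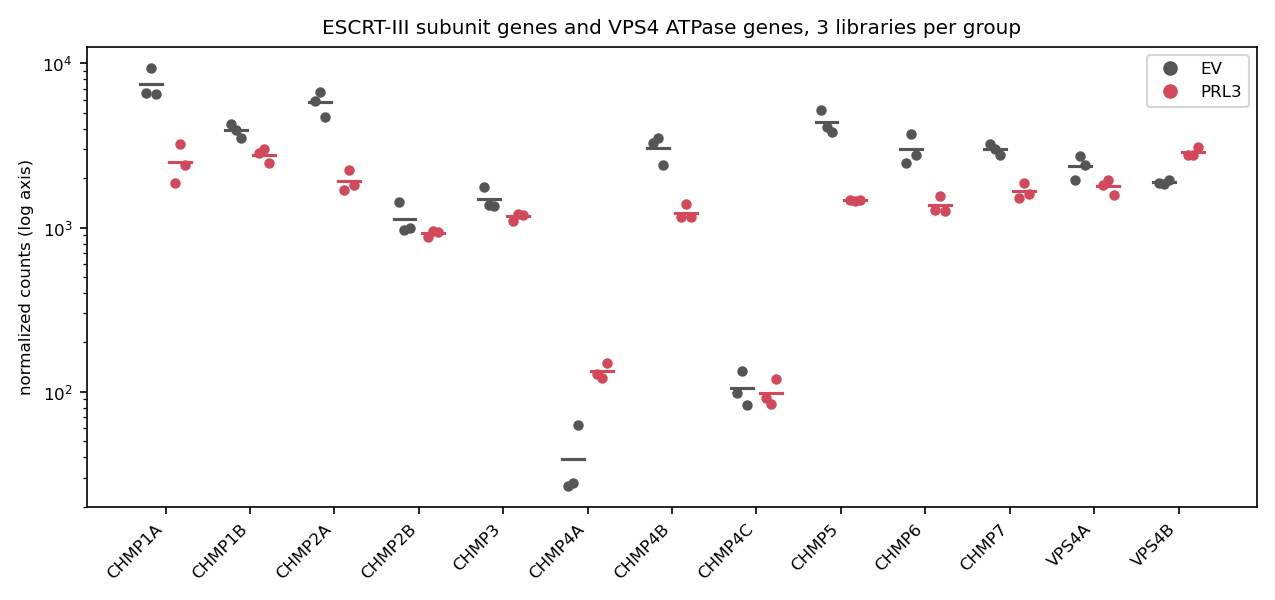
Normalized counts (y axis, log scale) of the 11 ESCRT-III genes and the 2 VPS4 genes (x axis) in the 3 EV libraries (grey) and the 3 PRL3 libraries (red), with a bar at each group's mean. For 7 CHMP genes the PRL3 points lie below the EV points and pass the test, whereas CHMP4A and VPS4B lie above; CHMP1B and VPS4A are near 0 in log2 fold change with library size alone.

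In GARP and EARP, VPS51 and VPS52 were lower and VPS53 was higher, although the 3 proteins sit in the same tethering complexes. VPS51 had 4347, 6427 and 5095 in EV and 2428, 3167 and 2587 in PRL3 (-0.96 ± 0.18, adjusted p = 0.000785). VPS52 had 2522, 2744 and 2561 in EV and 2019, 2008 and 1715 in PRL3 (-0.45 ± 0.15, adjusted p = 0.0258), a fall that was 0.05 with library size alone and lost its call without EV library B2 or any 1 PRL3 library (adjusted p 0.0613 to 0.148). VPS53 (chr17:508503-721717) had 3872, 4305 and 4314 in EV and 7140.1, 5474 and 5329 in PRL3 (0.52 ± 0.16, adjusted p = 0.0163). PRL3 library B9 held the highest VPS53 value, and without it the gene was not called (adjusted p = 0.0978). GENCODE release 44 gives VPS53 42876 bases of exon, the total over all its transcripts. The 4 VPS13 genes, whose proteins move lipids between membranes, lay between -0.27 and 0.29 in log2 fold change and none passed the test.

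The remaining 3 genes carry a VPS symbol without belonging to a sorting complex of the groups above, and all 3 were lower. VPS72 (chr1:151176304-151195321), a subunit of chromatin complexes that exchange histone H2A.Z, had 4896, 5944 and 3948 in EV and 1545, 1603 and 1450.4 in PRL3 (-1.68 ± 0.17, adjusted p = 1.52e-05). VPS9D1, a protein with a Rab-activating VPS9 domain, had 855, 1029.9 and 741 in EV and 359, 419 and 353 in PRL3 (-1.21 ± 0.20, adjusted p = 0.00029). VPS45, a regulator of SNARE pairing at endosomes, was lower too (-0.68 ± 0.16, adjusted p = 0.0033, not called with library size alone).

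The sorting nexins fall into families by the domains beside PX. Nexins with a BAR domain bend membrane into tubules, and 5 of 12 were lower and 2 higher with TMM. SNX6, which works with SNX5, SNX1 and SNX2 on tubules that return cargo to the Golgi, had 1772, 1083 and 1122 in EV and 730.0, 625 and 734 in PRL3 (-0.93 ± 0.21, adjusted p = 0.00288). SNX5, with the highest level per length of the SNX-BAR genes in EV (47.9 ± 5.19 CPM per kb), had 18019.7, 15945 and 19831 in EV and 16731, 21875 and 20086 in PRL3 and overlapped (0.13 ± 0.16, adjusted p = 0.559, 0.61 and called higher with library size alone, -0.35 with all uniquely aligned reads). SNX8 had 2862, 3814 and 3022 in EV and 1452, 2043 and 1865 in PRL3 (-0.85 ± 0.18, adjusted p = 0.00163). SNX6 and SNX8 were no longer called with library size alone, and SNX8 was not called with the GC offset either (-0.23, adjusted p = 0.127). SNX9, which helps dynamin at the plasma membrane, had 2265, 2122 and 1914 in EV and 1235, 1413 and 1167 in PRL3 (-0.72 ± 0.16, adjusted p = 0.00233, not called with library size alone). Its relative SNX18 had 1393, 1793 and 1873 in EV and 2114, 2802 and 2254 in PRL3, in the other direction (0.50 ± 0.17, adjusted p = 0.0312). SNX30, which pairs with SNX4, had 2939, 2660.2 and 2714 in EV and 3941, 3916 and 3653 in PRL3 (0.47 ± 0.14, adjusted p = 0.0157, -0.01 with all uniquely aligned reads). SNX7, likewise a partner of SNX4, had 1067, 905 and 829 in EV and 599, 784 and 697 in PRL3 and was not called (-0.43 ± 0.18, adjusted p = 0.0749), but was called lower without EV library B3 (adjusted p = 0.0422) and was 0.06 with library size alone. The calls for SNX18 (without EV library B1, PRL3 library B10 or B11, adjusted p 0.0634 to 0.161) and SNX30 (without PRL3 library B9 or B10, 0.0558 and 0.0559) rested on single libraries.

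Nexins with a FERM-like domain are cargo adaptors. SNX17 (chr2:27370496-27377535), which sends integrins and lipoprotein receptors to retriever, had 8146, 10956 and 7992 in EV and 2902, 3691 and 3385 in PRL3 (-1.44 ± 0.17, adjusted p = 3.1e-05), and with 50.9 ± 9.4 CPM per kb in EV (SD, n = 3) it had the highest level per length of the sorting nexins. SNX27, the adaptor that hands receptors to retromer, had 4543, 4246 and 3855 in EV and 3369, 3147 and 2954 in PRL3 (-0.42 ± 0.14, adjusted p = 0.0325). The groups of SNX27 did not overlap, but its value was 0.08 with library size alone and its call was lost without EV libraries B1 or B2 or any 1 PRL3 library (adjusted p 0.0571 to 0.153). SNX31, the third, had 0 counts in 5 libraries and was not tested.

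Among nexins with an RGS-related domain, which are anchored in the endoplasmic reticulum, SNX13 and SNX19 were higher and SNX25 was lower. SNX13 had 1909.6, 1323 and 1813 in EV and 2513, 2210.1 and 3193 in PRL3 (0.65 ± 0.19, adjusted p = 0.0133). SNX19 had 6578, 7491 and 8069 in EV and 9760.4, 10846 and 9489 in PRL3 (0.44 ± 0.15, adjusted p = 0.0266, -0.03 with all uniquely aligned reads). Exons of the noncoding gene ENSG00000255455, which was higher too (0.66, adjusted p = 0.0301), cover 23.1% of the SNX19 exons. SNX25 had 2062, 1351 and 1728 in EV and 1169.6, 1069 and 1032 in PRL3 (-0.65 ± 0.18, adjusted p = 0.0101). Without PRL3 library B11 neither SNX13 (adjusted p = 0.089) nor SNX25 (adjusted p = 0.0564) was called, and SNX19 lost its call without EV library B1 or any 1 PRL3 library (adjusted p 0.0569 to 0.1).

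Of the 10 tested nexins with a PX domain alone or with other domains, 4 were lower and 2 higher. SNX3 (chr6:108211222-108261246), the retromer adaptor for Wntless and the transferrin receptor, had 2938, 2470.1 and 1835 in EV and 861, 877 and 882 in PRL3 (-1.47 ± 0.18, adjusted p = 4.57e-05). SNX12, its closest relative, had 3550.1, 3741 and 3502 in EV and 1513, 2098 and 1756 in PRL3 (-1.01 ± 0.16, adjusted p = 0.000248). These 2 kept their calls in every alternative. SNX24 had 1673, 1302 and 1442 in EV and 2186, 1837 and 2062 in PRL3 (0.46 ± 0.16, adjusted p = 0.0325), and SNX29 had 1980.3, 2438 and 2289 in EV and 3249, 2972 and 2789 in PRL3 (0.43 ± 0.15, adjusted p = 0.0351), both without overlap. With all uniquely aligned reads they were at -0.02 and -0.05. SNX24 lost its call without EV libraries B2 or B3 or PRL3 libraries B9 or B11 (adjusted p 0.0662 to 0.121), and SNX29 without EV libraries B1 or B3 or any 1 PRL3 library (adjusted p 0.0612 to 0.13). With the span offset SNX29 was at 0.0014 (adjusted p = 0.995) and SNX24 at 0.27 (adjusted p = 0.164), and with the GC offset SNX24 was at 0.21 (adjusted p = 0.142). SNX15 had 75.5, 123 and 18.2 in EV and 144, 272 and 124 in PRL3 and a log2 fold change of 1.34 ± 0.54 that missed the threshold (adjusted p = 0.0594). It passed without EV library B2 (adjusted p = 0.0154), with DESeq2 (0.0408) and with library size alone (0.00928), and exons of ARL2-SNX15 cover 39.0% of its exons. SNX15 was named after its values were seen.

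Ratios of 2 paralogs within a library do not depend on the scaling between libraries. They were taken for 15 pairs as the log2 ratio of counts (0.5 added to each count). For 11 of the 15 pairs the EV and PRL3 ratios did not overlap. Each such pair had p = 0.1 by a two-sided exact permutation test, the smallest that 3 against 3 can give, and 0.136 after Benjamini-Hochberg adjustment over the 15 pairs, so that no pair could pass a threshold of 0.05. In 8 pairs the mean ratio moved by more than 1 on the log2 scale. Neither count was taken for other pairs of genes. Among single tested genes 26.6% had every PRL3 library below every EV library, and 29.7% had every one above. The counts of pairs are therefore not read as particular to paralogs.

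The ratio of VPS4A to VPS4B was 0.07, 0.57 and 0.30 in EV and -0.60, -0.51 and -0.97 in PRL3, so that VPS4A had more counts in every EV library and VPS4B in every PRL3 library. That of CHMP1A to CHMP1B was 0.62, 1.25 and 0.89 in EV and -0.60, 0.10 and -0.04 in PRL3. The ratio for CHMP2A over CHMP2B moved from 2.36 ± 0.39 in EV to 1.04 ± 0.16 in PRL3 (mean ± SD, n = 3), and that for CHMP4A over CHMP4B from -6.37 ± 0.97 to -3.21 ± 0.30. In all 4 of these pairs the EV and PRL3 ratios did not overlap, and in 3 of them the first gene lost ground to the second, CHMP4A/CHMP4B being the other. Among the VPS37 genes, VPS37C over VPS37D moved from 2.06 ± 0.38 to 4.18 ± 0.87 and VPS37A over VPS37B from -1.52 ± 0.41 to -0.60 ± 0.32. Of the VPS37B exons 29.4% are shared with another gene. VPS33A over VPS33B, the Sec1/Munc18 subunits of HOPS and CHEVI, moved least of the 11, from -1.76 ± 0.08 to -1.45 ± 0.20, and 21.6% and 55.7% of their exons are shared with other genes.

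For the sorting nexins, SNX9 over SNX18 was 0.70, 0.24 and 0.03 in EV and -0.77, -0.99 and -0.95 in PRL3, so that SNX9 had more counts in every EV library and SNX18 in every PRL3 library. SNX13 over SNX25 was -0.11, -0.03 and 0.07 in EV, close to equal counts, and 1.10, 1.05 and 1.63 in PRL3. SNX5 over SNX6 moved from 3.79 ± 0.41 to 4.81 ± 0.31 and SNX7 over SNX30 from -1.58 ± 0.13 to -2.48 ± 0.21. The 4 pairs whose ratios overlapped were VPS26A/VPS26B, VPS13A/VPS13C, SNX1/SNX2 and SNX3/SNX12 (p 0.2 to 0.5, adjusted 0.25 to 0.5).

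**Figure D4:**
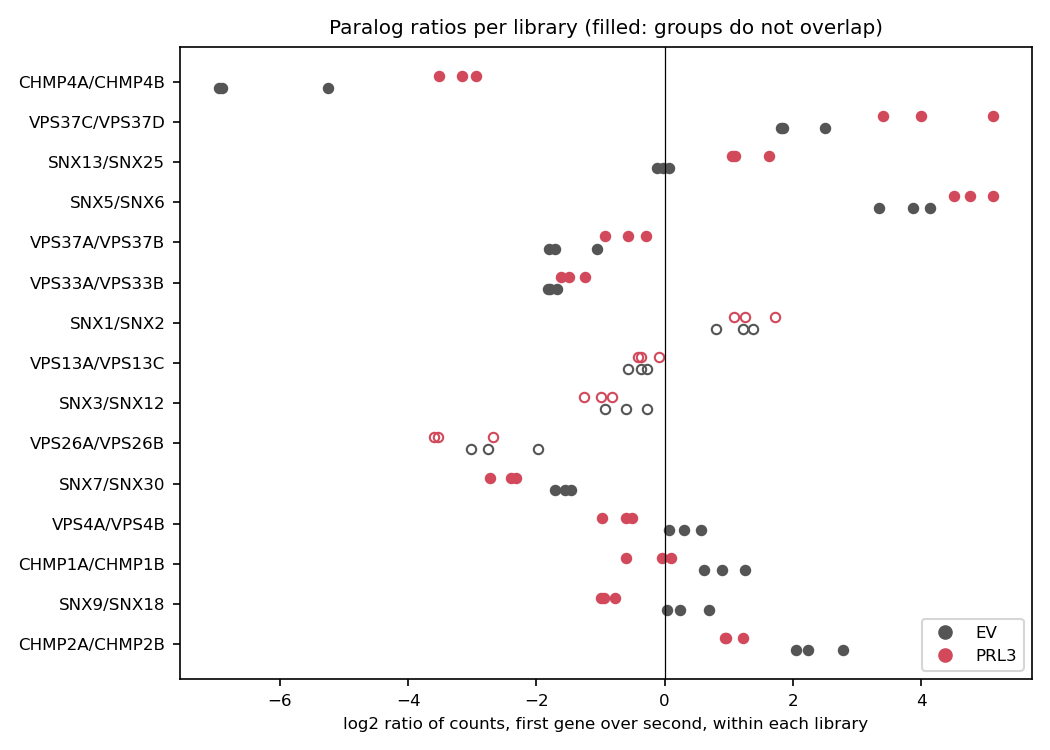
Log2 ratio of the counts of 2 paralogs within each library (x axis) for 15 pairs (rows), with EV libraries in grey and PRL3 libraries in red, ordered by the difference between groups. Filled points mark the 11 pairs whose groups do not overlap, CHMP4A/CHMP4B with the largest difference (3.16), and open points the 4 pairs that overlap. The share without overlap among other pairs of genes was not computed.

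Genes of the same machines whose symbols fall outside the rule were read from a list of 54 partners. With TMM 20 were lower and 3 higher (median log2 fold change -0.24), while library size alone gave 8 lower and 19 higher (median 0.26). The 37.0% called lower and 5.56% called higher compare with 31.6% and 15.2% of protein-coding genes. Of 16 ESCRT partners 10 were lower and 0 higher, with MVB12A, an ESCRT-I subunit, the largest fall. MVB12A had 2738, 4199 and 2898 in EV and 1073, 1308 and 932 in PRL3 (-1.57 ± 0.20, adjusted p = 4.68e-05). Of 13 Commander partners of retriever, 8 were lower and 2 higher. COMMD7 had 1481, 1476 and 1125 in EV and 319, 470.3 and 434 in PRL3 (-1.74 ± 0.20, adjusted p = 2.85e-05), and CCDC93, a subunit of the CCC complex that joins the COMMD proteins to endosomes, had 2701, 2066 and 2145 in EV and 4574, 4445 and 4517 in PRL3 (0.97 ± 0.15, adjusted p = 0.000254).

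None of the 6 WASH genes, which nucleate actin on endosomes, and none of the 6 effectors of the endosomal lipid PI3P passed the test. Among 4 partners of HOPS, CORVET and CHEVI, RILP, the Rab7 effector that links late endosomes to dynein, was lower, with 449, 800.1 and 594 in EV and 145, 175 and 146 in PRL3 (-1.98 ± 0.25, adjusted p = 5.19e-05). Of 9 genes for phosphoinositide kinases, phosphatases and their subunits, 1 was lower and 1 higher. FIG4 had 332, 263 and 351 in EV and 209, 203 and 181 in PRL3 (-0.67 ± 0.24, adjusted p = 0.0358), and BECN1 had 3699.9, 3417 and 3728 in EV and 4428, 4958 and 4770.3 in PRL3 (0.38 ± 0.14, adjusted p = 0.0401, -0.09 with all uniquely aligned reads). Both calls depended on single libraries: FIG4 kept its call only when the library left out was EV library B2, and BECN1 kept its call only when it was EV library B1 (adjusted p otherwise 0.0542 to 0.145 and 0.0551 to 0.128).

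The members called lower differed from those called higher in the length, composition and level of the gene, which the rule did not use. The median span was 19.6 kb for the 34 lower members, 90.6 kb for the 10 higher and 53.7 kb for the 30 not called, and the median GC content of the exons was 51.8%, 46.3% and 42.5%. Across the 74 tested members Spearman's rho with the log2 fold change was 0.43 for span, 0.54 for exonic length and -0.39 for GC content, and across 14369 other tested protein-coding genes 0.30, 0.28 and -0.35. These are correlations across genes, which share the same 6 libraries and are not independent replicates. Of the 22 members spanning up to 20 kb, 17 were lower and 1 higher, while 45.3% of other protein-coding genes of that span were lower. Of the 16 members longer than 120 kb, 2 were lower (11.2% of other genes of that span) and 5 higher (24.0%). Between 20 and 60 kb 10 of 27 members were lower and 4 higher (32.7% and 14.8% of the others), and between 60 and 120 kb 5 of 9 were lower and 0 higher (21.2% and 15.5%). With an offset for gene span in the fit 32 members were lower and 8 higher, and with an offset for exonic GC content 44 and 5. The GC offset ended the calls of 10 members, those named above (SNX8, SNX24 and VPS18) and SNX13 (0.18), SNX18 (0.29), SNX19 (0.22), SNX21 (-0.29), SNX30 (0.27), SNX33 (-0.28) and VPS26C (0.28). The span offset ended those of 7, which were SNX24, SNX29, VPS18, SNX21 (-0.34), SNX33 (-0.35), VPS52 (-0.29) and VPS53 (0.29). Both offsets brought SNX7 and VPS41 past the threshold as lower, the GC offset also VPS35, CHMP2B and VPS4A, and both brought SNX15 past it as higher, among the genes given with their values.

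**Figure D5:**
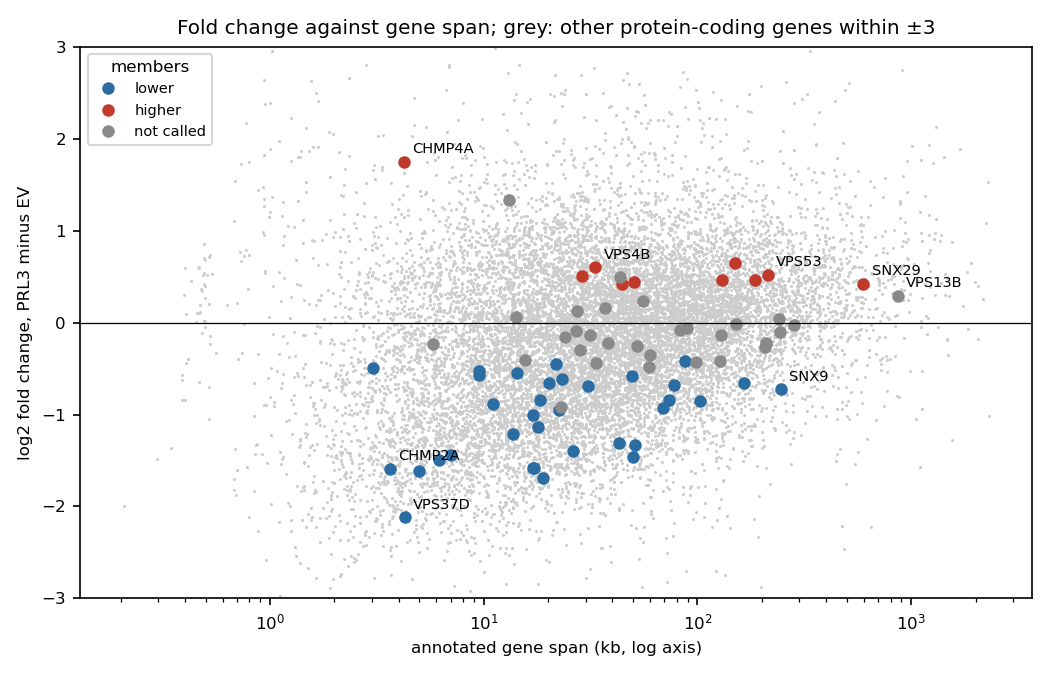
Log2 fold change (PRL3 minus EV, TMM scaling, y axis, shown from -3 to 3) against annotated gene span in kb (x axis, log scale) for the 74 tested members (coloured by call) and the other tested protein-coding genes within that range (small grey points). Members under 20 kb lie mostly below 0 (17 of 22 called lower), CHMP4A being the exception, and those over 120 kb mostly near or above it (5 of 16 called higher); with library size alone all points move up, and the members' median is 0.07.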

How the data were processed

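The authors labelled RNA with 4sU for 20 min, purified it with biotin and streptavidin, removed ribosomal RNA and prepared strand-specific paired-end libraries, 3 from EV cells and 3 from PRL3 cells. Per the labels and the study's methods they aligned reads to GRCh38 with STAR 2.5.1b and counted them per gene with htseq-count (HTSeq 0.6.1, reverse strand setting, Ensembl release 91). The deposited values are these raw counts, whole numbers with no normalization, and the authors' files also give the reads outside exons (28.7% to 41.1% of uniquely aligned reads in EV, 62.8% to 69.1% in PRL3) and the ambiguous reads, which were kept out of the library sizes.

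Symbols, lengths and shared exons were taken from GENCODE release 44 on the same build. Counts were fitted in R 4.3.3 with edgeR 4.0.16 (filterByExpr, TMM, glmQLFit and glmQLFTest), PRL3 against EV without covariates, and adjusted by the Benjamini-Hochberg method over 23884 genes at 0.05. Normalized counts were scaled to the mean effective library size. Levels per length are CPM, on the effective library size, per kb of annotated exon. Standard errors were derived from the F statistic. Paralog ratios were compared by exact permutation tests (SciPy 1.17.1). No 2 libraries agreed within sampling noise (chi-square between 2 libraries, mean over genes 24.7 or more).

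Genes given with values for each library were the 4 retromer and 7 HOPS and CORVET subunits, in each family the 2 largest falls and the 2 largest rises past the threshold, and both genes of each pair whose ratios did not overlap. In each set of partners they were the largest fall and the largest rise past the threshold. Members, groups, partners and pairs were chosen with earlier results of these data known. Alternatives were RLE, upper-quartile, library-size and unique-read scaling, DESeq2 1.42.0, limma-voom (limma 3.58.1), other filters, a threshold of 0.01, a fit of protein-coding genes only, and the loss of each library. Offsets for exonic GC content and gene span were added after seeing the data. The genes were not split by intron, since the counts cover exons only.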

Additional observations from a re-analysis of the deposited data

Results flagged for a closer look

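Uniquely aligned reads given to no gene enter no comparison of genes. Those off the annotated exons made up 66.27% of uniquely aligned reads on average in the PRL3 libraries (62.8% to 69.1%) against 33.3% in the EV control libraries (28.7% to 41.1%), and no PRL3 library overlapped an EV library. The two-sided exact permutation p was 0.1, the smallest that 3 against 3 can give. Which member genes these reads belong to cannot be read from counts per gene.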

How the results depend on the processing

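The count of members lower in PRL3 kept within 1.5 times of 34 in each alternative except library size alone (16), and it ranged from 27 to 35 when 1 library was left out. The count higher was less stable, at 20 with library size alone, 1 with all uniquely aligned reads, 5 with the GC offset, 2 at an adjusted p of 0.01, and 4 to 9 without 1 library (4 without PRL3 library B9 or B11, 5 without B10). The members' median log2 fold change turned to 0.072 with library size alone and was -0.90 with all uniquely aligned reads, -0.53 with the GC offset, -0.35 with the span offset, -0.24 with protein-coding genes only, -0.24 with upper-quartile scaling and -0.49 to -0.31 without 1 library (-0.49 without EV library B3, -0.31 without EV library B1).

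With library size alone, lower counts were 1 for retromer, 1 for HOPS and CORVET (3 higher), 3 for sorting nexins and 8 for partners (19 higher). With all uniquely aligned reads ESCRT had 1 higher, sorting nexins 0 higher, and partners 37 lower and 1 higher. Sorting nexins had 2 higher with the GC offset, 0 at an adjusted p of 0.01 and 1 to 6 without 1 library (1 without PRL3 library B11, 2 without B9 or B10). Partners had 13 lower at 0.01, 9 higher with protein-coding genes only, 9 with upper-quartile scaling, and 13 to 19 lower and 2 to 7 higher without 1 library (13 without PRL3 library B11, 7 without EV library B1). The 11 non-overlapping paralog ratios were 11 or 12 in each alternative, and PTP4A3 was called higher in each.

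Of the 74 tested members 24 changed sign with library size alone, 11 with all uniquely aligned reads, 9 each with protein-coding genes only and upper-quartile scaling, 7 with the GC offset and 3 with the span offset. Those that were called or given with their values, with 1 partner, were these. Library size alone gave CHMP1B 0.0037, CHMP2B 0.20, SNX27 0.082, SNX7 0.062, VPS33B 0.34, VPS35 0.051, VPS37C 0.34, VPS41 0.27, VPS4A 0.0816 and VPS52 0.0473. All uniquely aligned reads gave SNX19 -0.0299, SNX24 -0.0200, SNX29 -0.0527, SNX30 -0.0097, SNX5 -0.35, VPS11 -0.41, VPS26C -0.0535, VPS33A -0.32, VPS37A -0.25, VPS8 -0.44 and BECN1 -0.0916. The GC offset gave SNX5 -0.0977, VPS11 -0.0448, VPS33A -0.0495, VPS37A -0.0875, VPS37C 0.23 and VPS8 -0.24, and the span offset VPS8 -0.21. VPS33B was 0.0229 with protein-coding genes only and 0.0199 with upper-quartile scaling, where VPS37C was 0.0365 and 0.0309. VPS8 was -0.0014 with RLE scaling and -0.0483 to 0.18 without 1 library (below 0 without PRL3 library B10 or B11), and VPS37C was -0.30 to 0.0128 (above 0 without EV library B3). Each scaling moves all genes by a constant, which accounts for the sign changes it brings. The cause of the others was not tested.

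No paired analysis was possible because the EV and PRL3 libraries carry different numbers. With 3 libraries a group, exact tests of single ratios cannot go below 0.1, and the fold changes cannot show whether total nascent RNA differed, since no reference outside the libraries was used here.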

Other observations

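Noncoding genes named after a member (antisense, -AS, or divergent, -DT) were looked at after the members. Of 12 such genes 9 passed the filter, 0 were lower and 2 were higher in PRL3 by the quasi-likelihood F test of edgeR with p-values adjusted by Benjamini-Hochberg. Of the 9441 tested genes that are not protein-coding, 9.06% were lower and 27.5% higher, so these counts lie near that background. SNX30-DT, the divergent transcript of SNX30, had 47.5, 55.3 and 125 normalized counts in EV and 215, 264 and 274 in PRL3 (log2 fold change 1.71 ± 0.37 SE, adjusted p = 0.00236), beside 0.47 for SNX30. VPS39-DT had 4, 4 and 19 counts in EV and 43, 32 and 43 in PRL3 (2.03 ± 0.76, adjusted p = 0.044), whereas VPS39 itself was lower (-0.58). CHMP1B-AS1 had 16, 4 and 0 counts in EV and 37, 59 and 26 in PRL3, without overlap, but missed the threshold (adjusted p = 0.0905), beside -0.49 for CHMP1B. VPS9D1-AS1, the most highly counted of the 12, overlapped between groups (-0.38, adjusted p = 0.254), beside -1.21 for VPS9D1. Counting was strand-specific, and these genes were chosen after the values of the members had been seen.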
